A study of Homo sapiens with 18 samples.

Results

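TSA-only promoter sites are stretches of open chromatin near the start of a gene that appear in the ATAC-seq peak list of LNCaP cells treated with trichostatin A (TSA) and not in the list of vehicle-treated cells. LNCaP cells come from a human prostate cancer and carry an active androgen receptor. A site of the merged table was taken as TSA-only when it shared at least 1 base with a TSA peak and none with a vehicle peak, and as a promoter site when its centre lay within 1 kb of a start site in the GENCODE basic set. This gave 1808 TSA-only promoter sites out of 51909 sites in the table. They are compared below with 11541 promoter sites found in both lists, called shared, with 605 promoter sites found under vehicle alone, and with 11626 TSA-only sites farther than 1 kb from a start, called distal.

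The ATAC-seq data came from 3 LNCaP cultures treated with TSA at 100 ng/ml for 24 h and from 3 cultures given DMSO, the vehicle, for the same 24 h, all grown in medium with charcoal-stripped serum and without phenol red. The mRNA-seq data came from 3 cultures per condition under the same treatments, and 3 further mRNA-seq libraries were untreated. Enhancer activity had been measured by WHG-STARR-seq, a plasmid reporter assay in which a genomic fragment drives its own transcription, with 1 input library and 2 output replicates harvested 72 h after transfection. The deposited files hold peaks of pooled libraries and averages over libraries, so the depth of each library is unknown, no value below has an error between replicates, and no test between conditions is given. With pooled bulk chromatin, a site that is open in more cells and a site that is more open in each cell cannot be told apart.

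TSA blocks class I and class II histone deacetylases, the enzymes that remove acetyl groups from histone tails. Acetylated histones hold DNA less tightly and are bound by bromodomain proteins, and promoters of active genes normally carry acetylated histones around a stretch free of nucleosomes. Tn5 transposase, the enzyme of ATAC-seq, inserts its adapters into such free DNA, so read density marks open chromatin. Many human promoters lie in CpG islands, which are open in most cell types, while promoters poor in CpG are more often open in some cell types only. Genes of neurons, germ cells and embryonic patterning are examples that histone deacetylases help to keep silent elsewhere.

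The 4 promoter stretches below are shown as examples. Each is free of annotated exons and is read 5′ to 3′ on the strand of the gene from GRCh37, the assembly named hg19 in the study. The first belongs to JAKMIP2, the site with the highest TSA peak, whose start had no vehicle peak within 1 kb. Its capitals mark every match to the 22 motifs searched on either strand, which are a CCAAT box and the RFX motif GTTGCC, both on the opposite strand.
JAKMIP2, chr5:147162339-147162538, minus strand: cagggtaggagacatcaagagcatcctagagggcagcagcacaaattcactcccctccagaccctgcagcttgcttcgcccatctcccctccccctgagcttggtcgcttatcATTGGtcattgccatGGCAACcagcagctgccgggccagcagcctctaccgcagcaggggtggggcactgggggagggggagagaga

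The other stretches come from sites whose TSA peaks are high among TSA-only promoter sites. Each holds a motif whose share differed from that of shared promoter sites, and here the capitals mark that motif alone. AGA-DT, a noncoding gene named after the aspartylglucosaminidase gene AGA, shows the AP-1 motif, TGANTCA, with 2 matches. The nearest start of AGA lay 153848 bases from the centre of this site, so the stretch is not the promoter of AGA. The noncoding gene LINC02534 shows the TATA box, TATAAA, and IL1RN, which encodes the interleukin 1 receptor antagonist, shows the GATA motif, AGATAA.
AGA-DT, chr4:178517277-178517403, plus strand: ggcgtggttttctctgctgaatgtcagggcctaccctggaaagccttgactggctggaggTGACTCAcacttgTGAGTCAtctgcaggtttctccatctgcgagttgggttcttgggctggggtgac
LINC02534, chr6:115965145-115965270, minus strand: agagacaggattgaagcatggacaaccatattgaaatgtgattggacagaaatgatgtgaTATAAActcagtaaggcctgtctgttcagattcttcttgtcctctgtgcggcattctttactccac
IL1RN, chr2:113875243-113875360, plus strand: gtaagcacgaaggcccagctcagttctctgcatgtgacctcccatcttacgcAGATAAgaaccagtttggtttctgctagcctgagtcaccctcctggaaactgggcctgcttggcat

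Condition-specific promoter sites leaned to the TSA list, while distal sites did so much less. At promoters 1808 sites were TSA-only and 605 vehicle-only, a ratio of 2.99. At distal sites the numbers were 11626 and 10582, a ratio of 1.10. The TSA list held 40995 peaks and the vehicle list 38813. When the TSA list was cut to the 38813 peaks of highest score, a comparison added after the data were seen, promoters had 1614 TSA-only and 673 vehicle-only sites, a ratio of 2.40, and distal sites had 10207 and 11067, a ratio of 0.922. Promoters made up 13.5% of TSA-only sites, 42.3% of shared sites and 5.41% of vehicle-only sites.

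**Figure D1:**
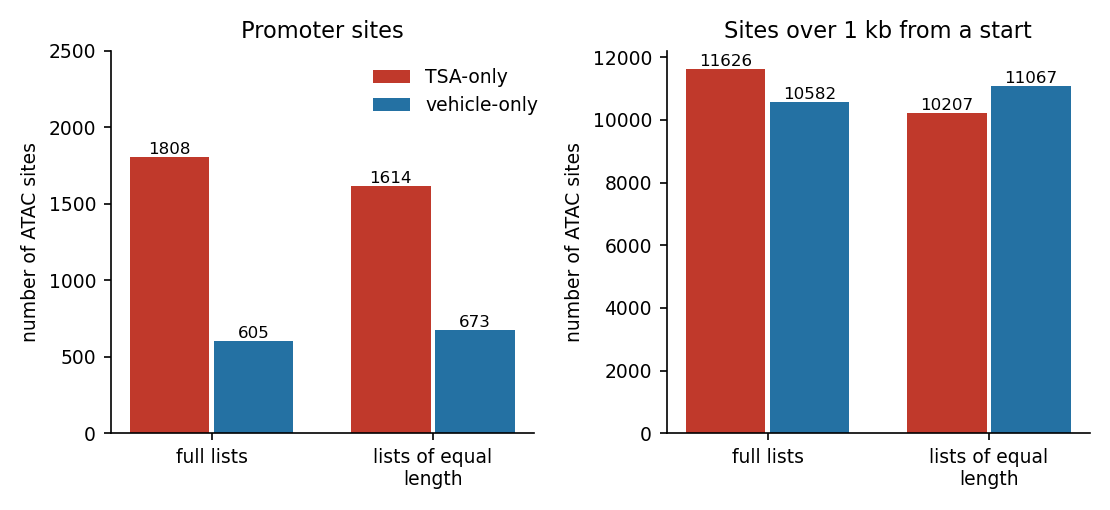
Numbers of TSA-only (red) and vehicle-only (blue) ATAC sites, at promoters on the left and over 1 kb from a start on the right, each with the full peak lists and with the TSA list cut to the length of the vehicle list. At promoters the red bars are 1808 and 1614 against blue bars of 605 and 673, and at distal sites the bars of each pair are closer in height.

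Shared promoter sites had the same lean in their pooled peak scores. The Fseq score, a kernel density of read ends that serves as the height of a peak, had a median of 0.0959 in the TSA list and 0.0809 in the vehicle list at the 11541 shared promoter sites, and the TSA score was the higher at 74.2% of them. At the 15747 shared distal sites the medians were 0.0618 under TSA and 0.0627 under vehicle, and TSA was the higher at 50.2%. How the authors scaled the 2 lists against each other is not given in the sources used here, so the contrast between promoters and distal sites can be read from these values and the absolute level cannot.

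Most TSA-only promoter sites carried low peaks. The rule used these lists, so the heights are a description. The TSA peak had a median score of 0.0459 in TSA-only promoter sites, with quartiles of 0.0411 and 0.0547, against a median of 0.0959 in shared promoter sites. The lowest score kept in the vehicle list was 0.0390, and the lowest in the TSA list 0.0377. The share of TSA-only sites among promoter sites with a TSA peak fell with its height. It was 70.8% below a score of 0.04 (322 of 455 sites), 50.2% from 0.04 to 0.05 (837 of 1666), 16.7% from 0.05 to 0.075 (545 of 3267), and 0.254% at 0.15 and above (7 of 2755). For 194 members, 10.7%, the TSA peak ranked below position 38813, beyond the length of the vehicle list. The part of the list limits in which sites are members was not tested.

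**Figure D2:**
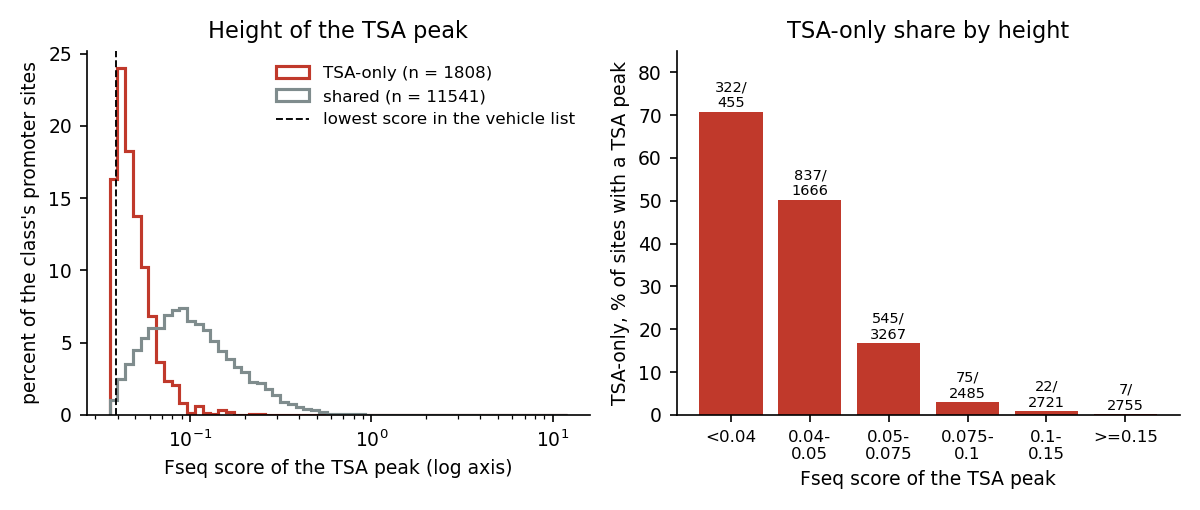
Left, distribution of the Fseq score of the TSA peak (log axis) in 1808 TSA-only (red) and 11541 shared (grey) promoter sites, in percent of each class, with the lowest vehicle score dashed. Right, percent of promoter sites with a TSA peak that were TSA-only in each range of the score, with the numbers above the bars, which goes from 70.8% in the lowest range to 0.254% in the highest.

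Only 29 of the 1808 members, 1.60%, had a TSA peak at or above the median of shared promoter sites. Of these tall sites 15 had a protein-coding gene at the nearest start and 11 a long noncoding RNA, and 5 of the 16 with a gene of the mRNA-seq data had a mean expression under 0 log2 CPM, a log2 scale of counts scaled to library size (CPM), averaged over the libraries of the authors' fit. The tallest, with a score of 0.241, lay over the start of JAKMIP2 on chromosome 5 from 147161602 to 147163006, and the nearest vehicle peak was 32914 bases away. JAKMIP2 encodes a coiled-coil protein that binds Janus kinases and microtubules, and its mean expression was 0.047 log2 CPM.

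Of the 15 tallest sites 8 had a protein-coding gene at the nearest start and 7 a long noncoding RNA. The site at CNTN1, which encodes the neuronal adhesion molecule contactin 1, had a score of 0.167 and its gene a mean expression of -2.09 log2 CPM. LINGO2, a leucine-rich repeat membrane protein of neurons, had a score of 0.157, a site of 4288 bases and an expression at the lowest value of the table, -2.62 log2 CPM. GALNT13, a glycosyltransferase of neurons that starts O-linked chains, had a score of 0.149 and an expression of -0.99 log2 CPM, and its site ended 229 bases from a vehicle peak. DCHS2, a large cadherin, had a score of 0.130 and an expression of -0.36 log2 CPM.

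PPARGC1A, a coactivator of mitochondrial genes, had a score of 0.158 and a mean expression of 1.79 log2 CPM. MARCHF1, a ubiquitin ligase that removes MHC class II from the cell surface, had a score of 0.148 and an expression of 3.04 log2 CPM. XKR6, a membrane protein gene of the XK family, had a score of 0.122 and an expression of 0.16 log2 CPM, and it was the only one of the 15 tallest sites to share a base with a STARR-seq enhancer, an open one of 3.23-fold enrichment. The long noncoding RNAs among the 15 included ENSG00000233569 (0.213), AGA-DT (0.172), MAGI2-AS3 (0.149), SATB1-AS1 (0.148) and MIR181A1HG (0.145), the host transcript of a miR-181 precursor. The gene of SATB1-AS1 had another start site with a vehicle peak within 1 kb, so for this gene the TSA-only site marks 1 of several starts.

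Members were narrower and less accessible on average than shared promoter sites. Their median width was 1116 bases, against 1841 in shared and 851 in vehicle-only promoter sites. Mean accessibility over TSA and vehicle libraries, as log2 CPM of reads in the whole site, had a median of 3.68 in TSA-only, 5.14 in shared and 3.25 in vehicle-only promoter sites, and of 2.68 in TSA-only distal sites. This value grows with width. The highest mean accessibility among members was 7.42 log2 CPM at PTGDS, a prostaglandin D synthase, where the merged site spans 18402 bases. ENSG00000287356, a long noncoding RNA, followed with 6.68 log2 CPM over 10560 bases, and ADAMTSL2, an extracellular matrix gene, with 6.55 log2 CPM over 12567 bases. The lowest was -0.55 log2 CPM at the pseudogene POMPP1, with 388 bases. The 5 lowest were 4 processed pseudogenes and a long noncoding RNA, at -0.55 to -0.11 log2 CPM.

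The centres clustered on the start. The median distance of the centre from the start was 29 bases downstream, with quartiles of -120 and 205, and 61.8% of members lay within 250 bases, against 70.3% of shared and 44.5% of vehicle-only promoter sites. The site covered the start base in 87.1% of TSA-only, 98.2% of shared and 65.6% of vehicle-only promoter sites. For 97.6% of members no vehicle peak came within 1 kb of the start, a share that the rule itself nearly fixes. The gene had another start, over 1 kb away, at 634 members, and such a start had a vehicle peak within 1 kb at 195 of these, 30.8%, against 44.5% of 3664 shared promoter sites. At the edge of the rule, ENSG00000254639, NGFR and POTED lay just inside the limit, with centres 1000, 998.5 and 998 bases from the start, and ADPRHL1, LCAT and ENSG00000182376 just outside, at 1000.5, 1004.5 and 1006.5 bases. The member nearest to a vehicle peak without touching it was the site at ATXN1-AS1, 13 bases away, followed by LINC01503 at 66 and ZNF433-AS1 at 72 bases. Of shared promoter sites, the one at RNU2-59P shared the fewest bases with a vehicle peak, 367, which is its whole width, followed by ENSG00000284698 with 376 and DUX4L13 with 377. The members with the lowest TSA peaks were those at CLU, SAE1 and ENSG00000285016, all at 0.0377.

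The nearest start belonged to a protein-coding gene at 1081 members, 59.8%, and to a long noncoding RNA at 494, 27.3%. In shared promoter sites these shares were 82.3% and 14.0%, and in vehicle-only promoter sites 48.1% and 27.3%. Pseudogenes stood at 152 members, among them 96 processed pseudogenes, and 25 members had a microRNA gene at the nearest start. The small RNA name Y_RNA occurred at 6 members on several chromosomes, which are separate loci. ENSG00000259692, a long noncoding RNA on chromosome 15, had 3 members at separate starts, with TSA scores of 0.0539, 0.0531 and 0.0491, and each shared a base with a closed enhancer, of 2.42-, 4.02- and 5.10-fold enrichment.

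TSA-only promoter sites were split at a set CpG ratio of 0.6 into a CpG-rich and a CpG-poor part. The ratio of observed to expected CpG had a median of 0.588 in TSA-only, 0.691 in shared and 0.338 in vehicle-only promoter sites, and a ratio of at least 0.6 was reached by 48.7%, 70.4% and 27.1% of these classes in the same order. GC content had a median of 58.1% in TSA-only, 59.5% in shared and 50.6% in vehicle-only sites. Among all promoter sites, TSA-only sites made up 30.1% of those with a CpG ratio under 0.2, 9.11% of those from 0.6 to 0.8 and 10.5% of those from 0.8 to 1. Vehicle-only sites made up 22.6%, 1.72% and 1.92% of the same ranges.

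The 880 CpG-rich members mostly lay at protein-coding genes, 78.3%, and the 928 CpG-poor members did so at 42.2%, with 38.1% at long noncoding RNAs. The median mean expression was 3.77 log2 CPM at CpG-rich and 1.47 log2 CPM at CpG-poor members with a gene of the mRNA-seq table. Both were below the same part of shared promoter sites, at 5.09 log2 CPM for CpG-rich and 4.58 log2 CPM for CpG-poor sites.

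Members lay at genes with lower expression than shared promoter sites. A gene of the mRNA-seq table started within 1 kb of 1173 members, and its mean expression had a median of 2.99 log2 CPM, with quartiles of -0.14 and 5.44. The median was 4.98 log2 CPM over 10170 shared promoter sites and 3.20 log2 CPM over 306 vehicle-only promoter sites. A mean expression under 0 log2 CPM was found at 305 members, 26.0%, against 7.63% of shared and 29.4% of vehicle-only promoter sites. These means mix TSA and vehicle libraries, so a level under either condition cannot be read from them. The share of TSA-only sites among promoter sites was 26.0% where the gene was under 0, 20.5% from 0 to 2, 9.46% from 2 to 4, 6.11% from 4 to 6, 5.96% from 6 to 8 and 10.8% at 8 log2 CPM and above. It was thus higher again at the top of the scale than in the middle, with 54 of 501 sites.

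**Figure D3:**
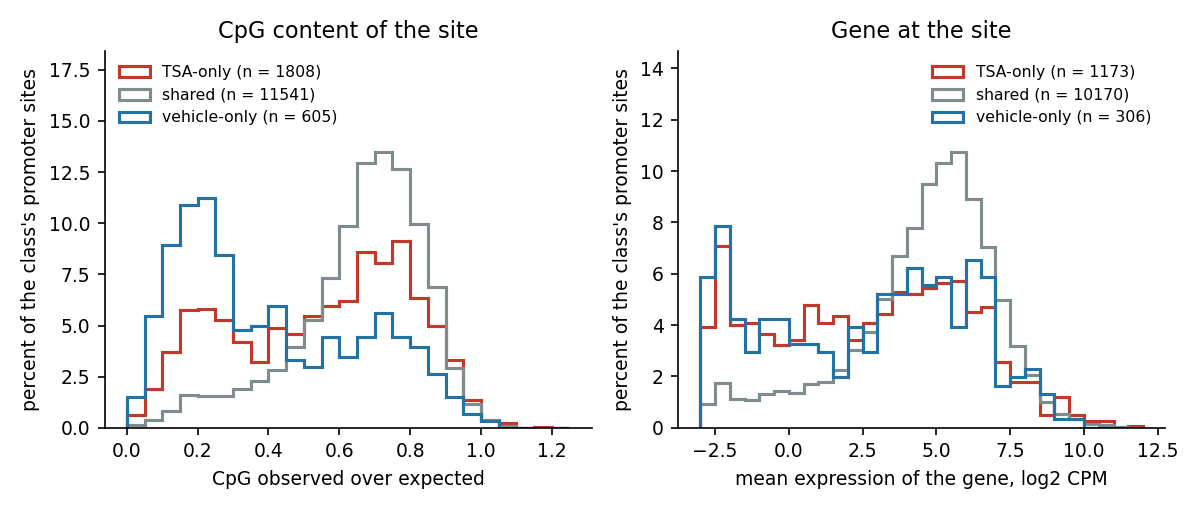
Left, CpG observed over expected in TSA-only (red), shared (grey) and vehicle-only (blue) promoter sites, and right, mean expression in log2 CPM of the gene within 1 kb, each as percent of the class. On the left the red line covers low and high CpG ratios, with 48.7% of TSA-only sites at 0.6 or above. On the right it lies above the grey line at genes under 0 log2 CPM, where 26.0% of TSA-only and 7.63% of shared promoter sites fall.

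The members at the 10 genes of highest expression all had TSA peaks below the median of shared promoter sites. This is no trait of these genes, since over all 1808 members only 29, 1.60%, reached that median. EEF2, the elongation factor that moves the ribosome along the mRNA, had the highest mean expression, 11.8 log2 CPM, and a site from 3984997 to 3985932 on chromosome 19 with a TSA score of 0.0420. UBB, a polyubiquitin gene, had 9.96 log2 CPM and a score of 0.0511. HSP90AB1, a chaperone, had 10.1 log2 CPM and a score of 0.0417, and RPL41, a ribosomal protein, 9.89 log2 CPM and a score of 0.0547. GNB2L1, the ribosomal scaffold now named RACK1, had 10.2 log2 CPM and a score of 0.0560, and NEAT1, the noncoding RNA of paraspeckles, 9.89 log2 CPM and a score of 0.0480.
The scores of these sites lie from 0.0417 to 0.0560, and GNB2L1 and RPL41 had a vehicle peak at 1612 and 286 bases from the site.

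MAP1B, a microtubule protein of neurons, had 10.8 log2 CPM, and its site had the highest score of the 10 genes with the highest expression, 0.0832, with the nearest vehicle peak 198847 bases away. The start nearest to that site is the one of ENSG00000285804, a long noncoding RNA. TUBA1B, an alpha tubulin whose antisense gene TUBA1B-AS1 has the nearest start, had 10.1 log2 CPM and a score of 0.0574. At GNAS, the gene of the stimulatory G protein alpha subunit, with 10.8 log2 CPM, another start had a vehicle peak within 1 kb. At the bottom, LCE3A, AIM2, LEMD1, UTF1 and GAL3ST3 stood at the table's lowest value of -2.62 log2 CPM. LCE3A is a protein of the cornified skin layer, AIM2 a sensor of cytosolic DNA and UTF1 a transcription factor of embryonic stem cells, and their scores were 0.0389, 0.0542 and 0.0380. AIM2 also had shared promoter sites, and another of its starts had a vehicle peak within 1 kb.

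STARR-seq enhancers were fewer at TSA-only than at shared promoter sites, and the balance of open and closed enhancers differed. In the deposited lists an enhancer is open where it overlaps a DNase I site of LNCaP cells that had received no TSA, and closed otherwise. An open enhancer shared a base with 269 members, 14.9%, against 28.4% of shared and 8.43% of vehicle-only promoter sites. A closed enhancer did so at 93 members, 5.14%, against 2.60% of shared and 3.64% of vehicle-only promoter sites and 8.14% of TSA-only distal sites. With start sites of protein-coding genes alone, the shares were closer together, at 2.97% of TSA-only (34 of 1143), 2.18% of shared (221 of 10158) and 2.63% of vehicle-only promoter sites (8 of 304). Members are narrower than shared sites and so had fewer bases to meet an enhancer. The enrichment of output over input, a value of the authors' MACS2 call, had a median of 3.24-fold for open and 3.01-fold for closed enhancers at members, and of 3.21-fold and 2.81-fold at shared promoter sites.

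Members with a closed enhancer lay at genes of low expression and members with an open enhancer at genes of high expression. The median mean expression was -0.30 log2 CPM over 36 members with a closed enhancer and a gene of the table, 5.19 log2 CPM over 232 with an open enhancer and 2.19 log2 CPM over 909 with neither. Closed enhancers were found at 1.93% of CpG-rich TSA-only and 1.99% of CpG-rich shared promoter sites, and at 8.19% of CpG-poor TSA-only and 4.04% of CpG-poor shared ones, and open ones at 8.41% of CpG-poor and 21.7% of CpG-rich members. In the same 36 members with a closed enhancer the TSA peak had a median score of 0.0512, and in the same 232 with an open one 0.0468. Members without a gene of the table are not in these medians.

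The strongest closed enhancers at members lay mostly at noncoding genes. ENSG00000289208 shared 639 bases with an enhancer of 21.1-fold enrichment on chromosome 14 from 67399081 to 67399949, and its site was 307191 bases from any vehicle peak. ENSG00000227400 followed with 16.7-fold, LINC02100 with 16.1-fold, LINC02159 with 8.87-fold and the pseudogene ENSG00000275201 with 6.96-fold. The only protein-coding gene among the 8 strongest was LCE1E, a cornified envelope protein, with an 11.6-fold enhancer that shared 851 of the 908 bases of the site, a TSA score of 0.0469 and a mean expression of -2.33 log2 CPM.

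Among the strongest open enhancers at members, that of RPS15, a protein of the small ribosomal subunit, had 21.3-fold enrichment, with a TSA score of 0.0495 and a mean expression of 8.02 log2 CPM. RPL29, of the large subunit, had 13.7-fold, a score of 0.0481 and 9.25 log2 CPM. EEF2, described above, had 11.4-fold. GATC, a subunit of a mitochondrial amidotransferase, had 12.3-fold and 6.89 log2 CPM, and CWC25, a splicing factor, 12.4-fold and 4.17 log2 CPM, below the median of 4.98 log2 CPM at shared promoter sites. ENSG00000269091, a long noncoding RNA among the 8 strongest, was not matched to a gene of the mRNA-seq table.

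Motifs in the 300 bases at the centre of each site were counted on both strands, and a base could count toward several motifs. The AP-1 motif of JUN and FOS proteins, TGANTCA, was in 8.30% of TSA-only promoter sites (150 of 1808), against 3.16% of shared and 8.10% of vehicle-only promoter sites, 14.2% of TSA-only distal sites and 10.0% of all sites. The FOXA1 core TGTTTAC was in 4.15% of TSA-only, 2.11% of shared and 8.93% of vehicle-only promoter sites and 9.81% of all sites. The TATA box TATAAA was in 6.31%, 3.21% and 18.3% of the 3 promoter classes in that order and in 16.5% of all sites, and AGATAA in 6.80%, 3.93% and 11.6% and in 13.3% of all sites. All 4 are motifs that vehicle-only promoter sites held more often than shared ones too.

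Motifs of CpG-rich promoters were less frequent in TSA-only than in shared promoter sites. The GC box GGGCGG of SP and KLF proteins was in 43.9% of TSA-only, 64.8% of shared and 25.8% of vehicle-only promoter sites and 24.3% of all sites. The ETS motif CCGGAAG was in 8.13%, 11.3% and 4.13% of the 3 promoter classes and 3.98% of all sites, and the YY1 motif AAGATGGCG in 1.71%, 2.62% and 0.661% and 0.763% of all sites. Within CpG-rich sites the differences were smaller, with the AP-1 motif in 2.50% of TSA-only and 2.04% of shared and the GC box in 66.9% and 73.7%. Within CpG-poor sites the AP-1 motif was in 13.8% of TSA-only and 5.83% of shared promoter sites. There the GC box was in 22.0% and 43.7%, and the ETS motif in 3.88% and 7.44%. The CCAAT box, CCAAT, was in 26.4% of TSA-only and 25.3% of shared promoter sites and 32.1% of all sites, and the RFX motif GTTGCC in 12.3%, 12.3% and 11.2%. The CRE motif TGACGTCA of CREB and ATF proteins was in 1.77% of TSA-only, 1.38% of shared and 0.331% of vehicle-only promoter sites and 0.589% of all sites.

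**Figure D4:**
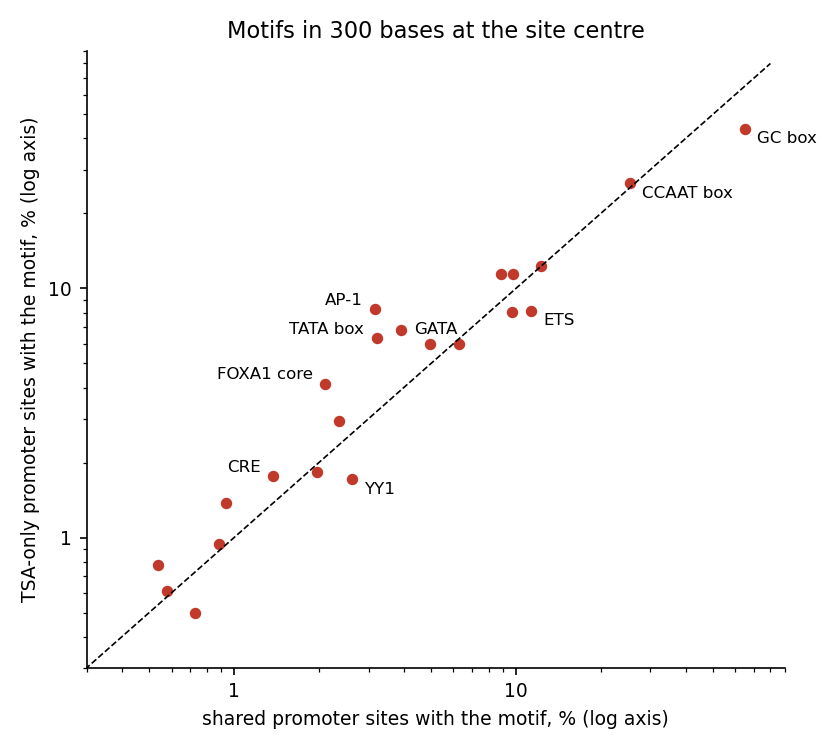
Percent of 300-base windows that hold each of 22 motifs (points), in TSA-only promoter sites on the vertical and shared promoter sites on the horizontal axis, both on log axes, with equal shares dashed. AP-1 (8.30% against 3.16%), FOXA1, TATA and GATA motifs lie above the line and the GC box (43.9% against 64.8%), ETS and YY1 motifs below it.

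Of 20785 genes of the mRNA-seq table with an annotated start, 1240 had a TSA-only promoter site, 5.97%, against 52.3% with a shared and 1.54% with a vehicle-only promoter site. Of the 1240 genes 1067 had no promoter site of another class and 165 had a shared one too. The 16 gene lists below are read against the 5.97%.

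Cytoskeleton and cell adhesion genes had a TSA-only promoter site at 11 of 37 genes, 29.7%, and a shared one at 18. CNTN1 and MAP1B were described above, and CNTN1 had another member at a later start, with a score of 0.0434. STMN4, a stathmin of neurons that acts on microtubules, had a score of 0.075 and a mean expression of 4.67 log2 CPM. CDH11, a cadherin of mesenchymal cells, had a score of 0.0686, a site from 65153638 to 65158480 on chromosome 16 and an expression of -1.71 log2 CPM.

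Of the 25 ribosomal protein genes on the list 6 had one, 24.0%, and 14 a shared one. The list is not complete, and RPS15, RPL29 and RPL41, which have members, are not on it. RPL37A, RPS27A and RPS18 had scores of 0.0542, 0.0495 and 0.0465 and mean expression of 9.26, 7.77 and 9.34 log2 CPM. All 3 shared a base with an open enhancer, of 8.03-fold at RPL37A, 4.68-fold at RPS27A and 3.64-fold at RPS18.

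Neuronal genes bound by REST, the repressor that recruits deacetylases to neuronal genes in other cells, had one at 6 of 30, 20.0%, and a shared one at 17. BDNF, a neurotrophin, had a score of 0.0790 and a shared promoter site at another start. SYT4, a vesicle protein, had a score of 0.0513 and an expression of 6.03 log2 CPM. The RNA-binding proteins CELF3 and CELF5 had scores of 0.0445 and 0.0440 and expression of 1.77 and 0.86 log2 CPM. Channel genes had a TSA-only site at 4 of 39, 10.3%, which were KCNJ8 (0.0629), KCNK3 (0.0572), KCNA2 (0.0510) and CACNA1C (0.0397). KCNA2 also had a vehicle-only promoter site, with a vehicle score of 0.0403.

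Replication-dependent histone genes, which are transcribed in S phase and lie in clusters, had a TSA-only site at 6 of 34, 17.6%, and a shared one at 5. HIST1H4H had a score of 0.0546, HIST1H2AM 0.0531, HIST1H4E 0.0508 and HIST1H2AC 0.0453, with mean expression from 2.11 to 4.57 log2 CPM. All 6 lie in the histone cluster of chromosome 6. Of linker and replacement histone genes 1 of 12 had one, H1F0, with a score of 0.0416 and an expression of 7.29 log2 CPM, and 11 had a shared site. H1F0 encodes the linker histone of cells that leave the cell cycle.

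Among cell cycle inhibitors 2 of 20 had a TSA-only site, 10.0%, and 17 a shared one. GADD45B, a stress gene, had a score of 0.0651 and an open enhancer of 2.93-fold. CDKN1A, which encodes the inhibitor p21, had a score of 0.0491 at 36646121 to 36646969 on chromosome 6, centred 47 bases after a start, and a mean expression of 7.61 log2 CPM. Of mitosis genes 2 of 25 had one, 8.00%, namely CCNB2, a mitotic cyclin (0.0730), and AURKB, a mitotic kinase (0.0593), and 22 had a shared site. Of DNA replication genes 0 of 30 had a TSA-only site and 29 a shared one.

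Antigen presentation genes had one at 3 of 22, 13.6%. CIITA, the activator of MHC class II genes, had a score of 0.0703 and an expression of -1.51 log2 CPM, HLA-C a score of 0.0521 and 7.44 log2 CPM, and HLA-DMA a score of 0.0407 and 2.70 log2 CPM. Developmental homeobox and patterning genes had one at 5 of 64, 7.81%, which were TBX2 (0.0821), FOXC1 (0.0757), SOX9 (0.0412), SOX17 (0.0397) and DLX1 (0.0392). All 5 sites had a CpG ratio from 0.723 to 0.925, and 35 genes of this list had no promoter site of any class.

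Epidermal differentiation and keratin genes had one at 3 of 31, 9.68%, all in the cluster of chromosome 1, at LCE1F (0.0519), LCE1E (0.0469) and SPRR1A (0.0437). LCE1F had a closed enhancer of 4.42-fold, and the CpG ratio of the 3 sites was 0.0620 to 0.139. Androgen-responsive genes had one at 2 of 25, 8.00%, PART1, a prostate transcript (0.0577), and KLK2, a prostate kallikrein (0.0450, with 4.41 log2 CPM), and 19 had a shared site. Metallothionein genes had one at 1 of 11, MT1G (0.0396). Interferon-stimulated genes had 0 of 20, and cancer-testis and germline genes 0 of 36, with 30 of these 36 in no class.

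**Figure D5:**
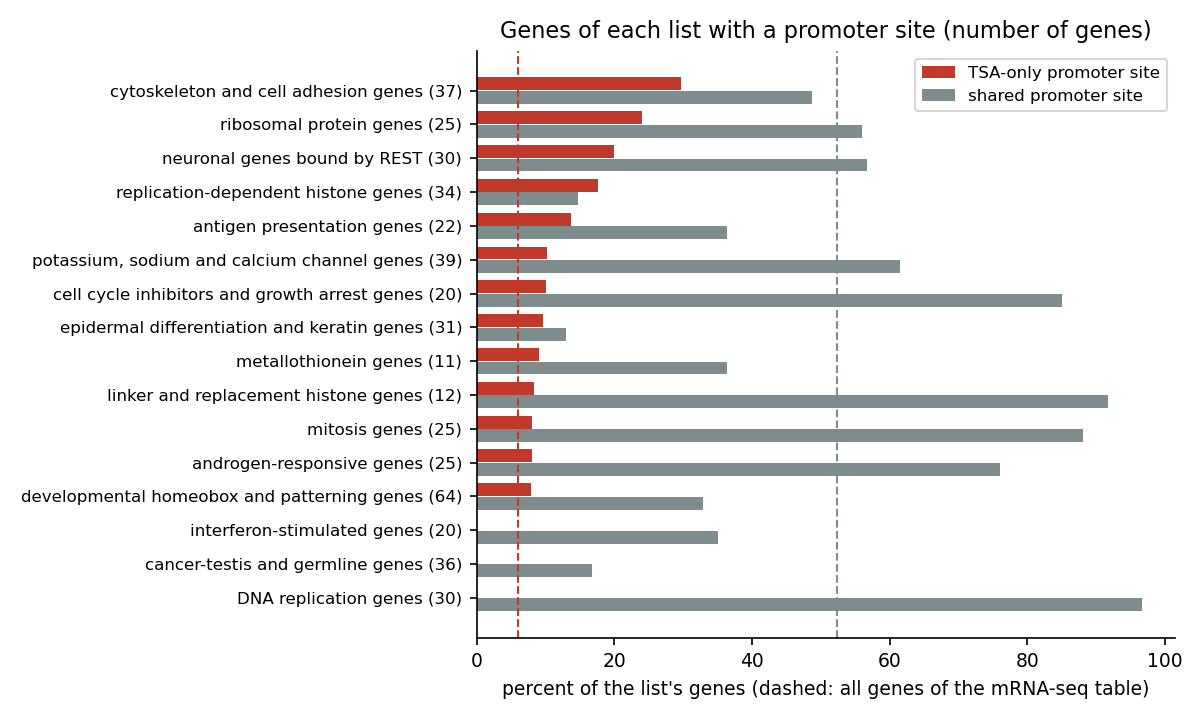
Percent of the genes of each list with a TSA-only (red) or shared (grey) promoter site within 1 kb of a start, with the number of genes in parentheses and the share over all genes of the mRNA-seq table dashed, 5.97% for TSA-only and 52.3% for shared sites. Red bars go from 29.7% for cytoskeleton and cell adhesion genes to 0 for interferon-stimulated, cancer-testis and DNA replication genes.

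Members were spread over the genome with a few dense stretches, which were picked after their values were seen. They fell into 1146 windows of 1 Mb, and 757 of these held 1 member. The window with the most, 13 of 16 promoter sites, lay in the histone cluster on chromosome 6 from 26000001 to 27000000, with sites at the histone genes H1-2, H2AC8, H4C5 and H4C8, the last pair being HIST1H4E and HIST1H4H under their current names, and at ABT1, HMGN4 and BTN2A1. On chromosome 1 the window from 1000001 to 2000000 held 10 of 22, with GNB1 and MRPL20, and the window of the epidermal cluster from 152000001 to 153000000 held 6 of 10. On chromosome 5 the protocadherin cluster from 140000001 to 141000000 held 9 of 44, among them PCDHA2, PCDHA4, PCDHA9, PCDHA10 and PCDHB10.

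By chromosome, TSA-only sites made up 20.0% of promoter sites on chromosome 6 and on chromosome Y (6 of 30), 18.2% on chromosome 2, 16.1% on chromosome 15 and 15.4% on chromosome 17, against 9.27% on chromosome 11 and 9.96% on chromosome 19, and 13.0% over all promoter sites. Without the histone window chromosome 6 had 18.4%. The part of peak height in these shares was not tested. The median TSA score of shared promoter sites was 0.0906 on chromosome 2, 0.0866 on chromosome 6 and 0.0848 on chromosome 19. Across the 22 autosomes, which share the same pooled libraries, Pearson's r between this median and the TSA-only share was -0.24 and Spearman's rho -0.25, given as a description.

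The marker check covered the identity of the cells. All 10 luminal prostate markers had a mean expression from 4.41 log2 CPM (KLK2) to 11.2 log2 CPM (FOLH1), and 8 had a shared promoter site. Of the 4 basal markers, KRT14, TP63 and KRT15 lay from -2.15 to -0.86 log2 CPM and KRT5 at 6.23 log2 CPM. Blood markers were low for PTPRC and CD3E, at -1.89 and -2.62 log2 CPM. The part of such genes in the values above was not tested, and KLK2 was the only marker with a TSA-only promoter site.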

How the data were processed

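Of 18 libraries in LNCaP cells, those of ATAC-seq, mRNA-seq under TSA or DMSO, and STARR-seq bear on these sites. The authors mapped ATAC-seq reads to hg19 (Bowtie, cutadapt, Bowtie2), removed duplicates with Picard, called Fseq peaks on the pooled libraries of each condition, merged them and counted reads per merged peak for edgeR. Each deposited peak has an Fseq score, and each merged site of the table an average in log2 CPM. The mRNA-seq table, made by the authors with TopHat and edgeR, holds a log2 CPM average per gene. The deposited enhancer lists hold the authors' MACS2 fold enrichment, a ratio of output over input, its −log10 q-value and, for open enhancers, a DNase I score. No version is given in the sources used here. The other columns of both edgeR tables hold the authors' comparison of TSA with vehicle (log2 fold change, likelihood ratio, p-value and, for sites, q-value) and were not used.

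Overlap means at least 1 shared base. Start sites were those of the GENCODE basic set on GRCh37 (110469 positions, 20785 of 22336 table genes matched by symbol or RefSeq synonym). Positions are 1-based. GC and CpG ratio were computed over the whole site, with CpG-rich at 0.6 or above. The rule was tested on 5000 simulated sites and placed 100% in their class. Scripts ran under Python 3.11.15 with pandas 2.3.3, numpy 2.4.6 and matplotlib 3.10.9. Since values are pooled or averaged, shares and medians are given without tests. Alternatives were other distances, start sets, overlap limits, a filter on low accessibility, autosomes and enhancer limits. The members, gene lists and motifs were chosen with earlier results of these data known. Named sites are the 15 tallest TSA peaks, the 5 highest and lowest in mean accessibility, the 8 strongest open and closed enhancers, 3 on each side of a threshold, the 10 highest and 5 lowest genes by expression, starts with 3 or more sites, and up to 4 sites per gene list (all where 5 or fewer), and other genes are marked as chosen after their values were seen. Some genes and sequences that this rule selects are not reported here.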

Additional observations from a re-analysis of the deposited data

How the results depend on the processing

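Of 86 alternative values of 9 results, 59 stayed within 1.5 times the count or within the 95% interval of the share or median over sites. Start sites of protein-coding genes alone gave 1143 sites, with a median accessibility of 3.96 log2 CPM, any enhancer at 22.9%, a closed enhancer at 2.97%, a GC content of 61.1% and a CpG ratio of 0.679. Start sites of genes of the mRNA-seq table alone gave 1173 sites, 3.94 log2 CPM, 22.5%, 3.07%, 61.0% and 0.678 for the same. A limit of 500 bases gave starts without a vehicle peak at 98.3%, any enhancer at 21.9%, a GC content of 58.6% and a CpG ratio of 0.630. A limit of 2 kb gave 94.6%, 17.6%, 56.5% and 0.519 for the same, with an accessibility of 3.54 log2 CPM and a TSA peak of 0.0454. Requiring no vehicle peak within 200 bases of the site gave 98.3% of starts without one, and leaving out sites under 1.43 log2 CPM gave 3.74 log2 CPM. With the centre of the enhancer inside the site, any enhancer was at 18.0% and a closed one at 3.93%. With the TSA list cut to the length of the vehicle list, chosen after seeing the data, the median TSA peak was 0.0472. The smaller sets follow from fewer start sites or bases by construction, and other causes were not tested. No replicate could be left out, since the values are pooled or averaged over libraries. No paired analysis was possible because the columns used carry no replicate number and the results come from no test. The depth of the libraries is unknown, so what it limits was not measured.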
